A study of Mus musculus with 34 samples.

Results

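PU.1 binding in mouse macrophages was compared between vehicle (Veh, PBS) and 1 h of Kdo2 lipid A (KLA) by chromatin immunoprecipitation followed by sequencing (ChIP-seq). The members described here are the peaks of the 2 PU.1 lists, 82218 of the 596383 peaks in the 30 peak lists of the series, which covers 34 samples. Peaks from both lists were merged into 1 locus where they shared 1 bp or more, which gave 51595 loci, and a locus was called KLA-only, shared or Veh-only by the lists that held it. Both PU.1 samples came from thioglycollate elicited macrophages (TGEMs) of male wild-type mice whose strain the labels give as C57Bl/6EiJ and the methods as C57Bl/6J, both were made with the antibody sc-352, and each was called against the input of its own treatment. TGEMs are primary macrophages drawn into the peritoneum by an irritant and flushed out, so that they are an inflammatory and not a tissue-resident population. The other lists used were ATF3, Jun, JunD, Fos, Fra2, JunB and CEBPa from the same strain in Veh and KLA, PPARg from the same strain in Veh, and 5 AP-1 monomers from male BALB/cJ mice. The ages of the mice and the dose of KLA are not in the labels. Each list already combines its replicates, whose number is not given in the sources used here, so a condition has 1 value, no difference between Veh and KLA could be tested, and no p-value is printed. Shares carry 95% Wilson intervals in parentheses, and differences between shares carry 95% Newcombe intervals. These intervals cover counting over loci only and not the spread between mice.

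PU.1, the product of Spi1, is an ETS-family transcription factor that macrophages and B cells need to form. It binds a purine-rich sequence around GGAA and, together with CEBP and AP-1 factors, opens the enhancers of the macrophage lineage. AP-1 is a family of leucine zipper proteins that bind as dimers, among them Jun, JunB, JunD, Fos, Fra2 (the product of Fosl2) and ATF3. KLA is the lipid A part of lipopolysaccharide and activates TLR4, which within minutes sends NF-kB to the nucleus and switches on genes for cytokines and for several AP-1 monomers. The labelled cell type was set against marker genes. All 10 macrophage markers (Spi1, Csf1r, Itgam, Cd14, Adgre1, Cd68, Lyz2, Mertk, Msr1 and Fcgr1) had a PU.1 locus within 5 kb of the gene, with a median of 7 loci a gene, in Veh and in KLA alike. A locus of either list was found near 6 of 10 B cell markers, 3 of 10 T cell markers, 6 of 10 neutrophil markers and 4 of 10 mesothelial or fibroblast markers, with medians of 1.00, 0, 1.50 and 0 loci, beside 57.7% of all 21924 protein-coding genes. A PU.1 peak near a gene does not show that the gene is expressed.

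The DNA under 10 of the loci shows the kinds of site described below. Each line gives the central 200 bp of a locus in GRCm38/mm10, plus strand, 5′ to 3′. Capitals mark exact matches, on either strand, to the PU.1 motif AGGAAGT, to the TRE, the AP-1 motif TGACTCA, and to the kappaB consensus, the site of NF-kB. The loci of the Tnf, Cxcl10 and Nfkbia promoters were picked after their values were seen. The others are among the top 2 of their class or direction on placed chromosomes, by the rule given with the processing. Windows chosen in the same way but not shown are those of the highest KLA-only locus, Tnfsf9, Ube4b and the other Cxcl10 promoter locus. None of these holds a match, so the windows shown favour loci with motifs. Of the windows shown, only that of Nr4a1 holds no match.
KLA-only, Nr4a1 intron, chr15:101262638-101262837: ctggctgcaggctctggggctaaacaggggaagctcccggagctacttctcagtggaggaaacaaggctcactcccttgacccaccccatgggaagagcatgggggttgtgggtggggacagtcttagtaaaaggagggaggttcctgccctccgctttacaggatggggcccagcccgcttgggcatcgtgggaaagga
KLA-only, Tnf promoter, chr17:35202452-35202651: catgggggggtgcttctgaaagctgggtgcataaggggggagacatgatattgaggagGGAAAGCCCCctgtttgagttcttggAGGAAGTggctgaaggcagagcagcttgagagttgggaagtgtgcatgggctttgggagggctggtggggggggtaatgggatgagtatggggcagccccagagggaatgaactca
KLA-only, Cxcl10 promoter, chr5:92348911-92349110: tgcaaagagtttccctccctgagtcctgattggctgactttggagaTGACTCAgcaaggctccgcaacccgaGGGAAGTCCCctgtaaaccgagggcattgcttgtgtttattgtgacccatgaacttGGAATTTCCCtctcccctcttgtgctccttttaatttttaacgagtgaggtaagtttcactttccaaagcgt
KLA-only, Nfkbia promoter, chr12:55492870-55493069: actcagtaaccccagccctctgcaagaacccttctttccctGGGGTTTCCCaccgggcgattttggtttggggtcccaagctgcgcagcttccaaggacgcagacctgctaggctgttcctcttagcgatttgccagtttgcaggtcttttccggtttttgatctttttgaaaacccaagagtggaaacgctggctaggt
shared and ranked higher in KLA, upstream of Ccl5, chr11:83536551-83536750: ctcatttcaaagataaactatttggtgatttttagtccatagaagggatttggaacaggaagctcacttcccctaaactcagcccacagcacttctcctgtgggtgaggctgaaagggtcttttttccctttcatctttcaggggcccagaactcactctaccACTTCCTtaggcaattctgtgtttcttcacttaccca
shared, upstream of Ptpn1, chr2:167925097-167925296: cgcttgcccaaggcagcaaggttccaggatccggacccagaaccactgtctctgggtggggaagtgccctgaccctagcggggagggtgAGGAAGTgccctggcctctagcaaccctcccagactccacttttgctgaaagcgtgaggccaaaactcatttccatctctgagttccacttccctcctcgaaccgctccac
shared, within Jazf1, chr6:52842674-52842873: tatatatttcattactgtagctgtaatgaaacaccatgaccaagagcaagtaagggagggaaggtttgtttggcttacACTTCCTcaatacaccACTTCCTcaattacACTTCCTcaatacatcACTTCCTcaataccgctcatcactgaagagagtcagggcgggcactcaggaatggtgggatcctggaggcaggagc
shared and ranked lower in KLA, nearest to Mbnl1, chr3:60714827-60715026: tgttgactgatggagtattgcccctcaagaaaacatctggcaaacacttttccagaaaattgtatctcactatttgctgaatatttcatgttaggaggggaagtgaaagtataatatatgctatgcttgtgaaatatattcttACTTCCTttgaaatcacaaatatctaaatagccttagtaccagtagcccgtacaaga
Veh-only, nearest to Gm826, chr2:160276078-160276277: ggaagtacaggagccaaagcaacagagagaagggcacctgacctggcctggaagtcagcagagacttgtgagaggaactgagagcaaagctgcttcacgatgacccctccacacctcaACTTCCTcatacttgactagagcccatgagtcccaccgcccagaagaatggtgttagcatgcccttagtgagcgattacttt
Veh-only, upstream of Serpinb8, chr1:107584189-107584388: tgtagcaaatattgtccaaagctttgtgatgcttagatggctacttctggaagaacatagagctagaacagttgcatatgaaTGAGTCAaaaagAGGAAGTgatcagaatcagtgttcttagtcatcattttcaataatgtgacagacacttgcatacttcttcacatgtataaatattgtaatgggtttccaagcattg
The 4 KLA-only windows hold 1 PU.1 motif among them, in the Tnf promoter, and the Tnf, Cxcl10 and Nfkbia promoters each hold a kappaB match. The window within Jazf1, a strong site in both conditions, holds 4 copies of the PU.1 motif. The window near Serpinb8, which encodes an intracellular protease inhibitor, has a TRE next to its PU.1 motif. A match is a description of the letters and not a site of binding.

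Most PU.1 loci were found in both conditions, and the loci of 1 condition were mostly weak. The Veh list held 41573 peaks and the KLA list 40645. Of all loci, 10047 were KLA-only (19.5%), 30587 were shared (59.3%) and 10961 were Veh-only (21.2%), so each list held loci of its own in similar numbers. Of the Veh peaks, 73.6% (73.2 to 74.1) overlapped a KLA peak, and of the KLA peaks 75.3% (74.9 to 75.7) overlapped a Veh peak. Joining put more than 1 peak of a list into 32 loci, and 9 loci lay on unplaced sequence. The counts in the lists were not scaled to depth: they ran from 110 to 1563 in Veh with a median of 259.0, and from 25 to 471 in KLA with a median of 62.00. A count in one list is therefore not comparable with a count in the other, and strength was read as the percentile of the count within its own list, where 100 is the highest. The lists also differed in score. The highest scaled score of the irreproducible discovery rate (IDR) filter, 1000, was held by 64.6% of Veh peaks and 52.6% of KLA peaks. Among peaks with that score the split was 12.5% KLA-only, 57.2% shared and 30.3% Veh-only, so that the balance of KLA-only against Veh-only loci depended on that threshold.

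KLA-only loci had a median percentile of 21.2 in the KLA list and Veh-only loci one of 24.6 in the Veh list, while shared loci stood at 60.97 in Veh and 60.3 in KLA. The percentiles follow from the rule that made the classes in so far as a weak peak is easily missed in the other list, and their part in the classes was not tested. When each list was split into 5 bins of equal size, the share of loci that were shared went from 44.6% in the lowest bin of the Veh list to 98.8% in the highest, and from 42.1% to 98.1% in the KLA list. Strong loci of 1 condition did exist. There were 33 KLA-only loci and 18 Veh-only loci at or above percentile 90 of their list, and 1464 and 1886 at or above percentile 50.

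**Figure D1:**
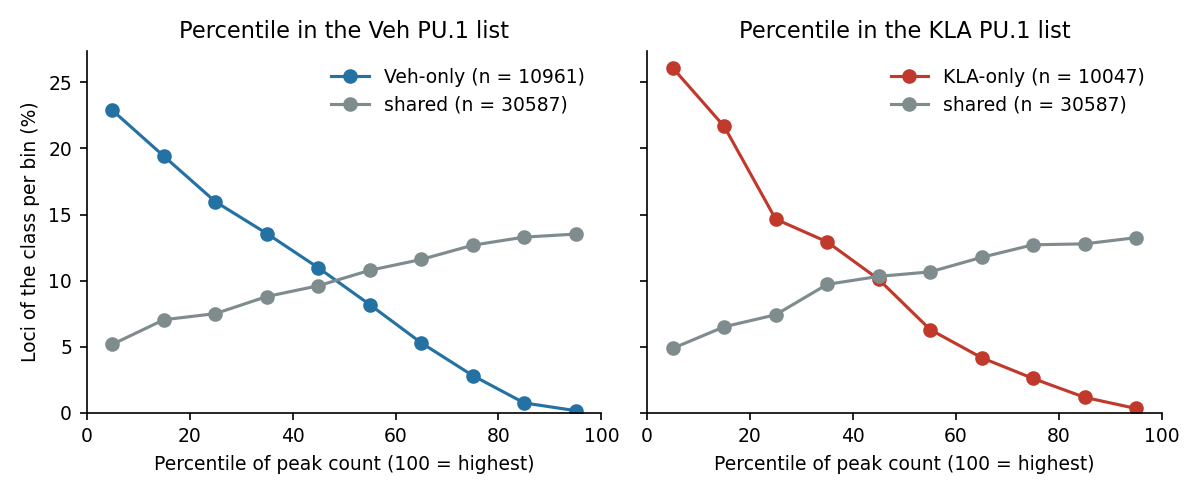
Share of the loci of a class (y axis, percent) in each of 10 percentile bins of peak count (x axis, 100 is the highest count), in the Veh list on the left and the KLA list on the right. Points are bins, with Veh-only in blue, KLA-only in red and shared in grey. The lowest bin holds 22.9% of Veh-only loci and 26.1% of KLA-only loci, and shared loci become more frequent with rank in both lists.

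PU.1 was among the factors with the most overlap between conditions. CEBPa, the other macrophage lineage factor profiled in both conditions, had 47.9% (47.2 to 48.6) of its 18721 loci shared. The AP-1 monomers with large lists in both conditions had 45.7% (ATF3), 42.5% (JunD) and 37.3% (Jun) shared, and Fra2 had 19.7%. Fos and JunB, whose genes TLR4 switches on, had 4.36% and 1.80% shared, with 92.8% and 96.6% of their loci found in KLA alone. These shares depend on the length of each list, which was 1804 peaks for Fos and 463 for JunB in Veh, and their differences from PU.1 were described and not tested.

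KLA-only loci lay nearer to transcription start sites (TSSs) than Veh-only loci. Of all PU.1 loci on placed chromosomes, 20.6% had their centre within 1 kb of a TSS. This share was 24.1% (23.3 to 25.0) at KLA-only, 21.4% (20.9 to 21.8) at shared and 15.2% (14.6 to 15.9) at Veh-only loci, a difference of 8.91 points (7.84 to 9.99) between KLA-only and Veh-only. The difference was smaller among peaks with an IDR score of 1000 (2.72 points, 1.27 to 4.20) and among loci at or above percentile 50 (2.52 points, 0.109 to 4.97), and larger when each list was cut to its strongest 50% of peaks before the classes were made (12.5 points, 11.1 to 13.9). The median distance to a TSS was 5926 bp for KLA-only, 7050 bp for shared and 9454 bp for Veh-only loci. Distal loci followed the opposite order: 6.26% of KLA-only, 6.87% of shared and 9.33% of Veh-only loci lay beyond 50 kb. Introns held 42.8%, 45.7% and 49.0% of the 3 classes in that order, and sequence between genes held 29.8%, 29.4% and 31.7%. Within the KLA-only class the weakest loci were the most promoter-near. The share within 1 kb of a TSS went from 27.9% in the lowest bin of the KLA list through 22.6%, 20.1% and 16.3% to 12.7% (8.26 to 18.9) of the 150 loci in the highest bin. Shared loci in the same bins had 17.2%, 22.95%, 23.25%, 23.1% and 19.0%, so that KLA-only loci exceeded shared ones in the weakest bin alone. Veh-only loci had 18.25%, 13.4%, 11.2% and 15.4% in the first 4 bins of the Veh list, and 16.2% of 99 loci in the highest. The order of the classes near TSSs thus depended on PU.1 strength.

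AP-1 monomers sat at very different shares of the 3 classes. After KLA, a peak of any of the 6 monomers was present at 59.4% (58.5 to 60.4) of KLA-only loci, 54.8% (54.3 to 55.4) of shared loci and 15.7% (15.0 to 16.4) of Veh-only loci, beside 47.4% of all PU.1 loci. Before KLA the order was another one, with 29.1% (28.2 to 30.0) of KLA-only, 50.0% (49.5 to 50.6) of shared and 18.8% (18.1 to 19.6) of Veh-only loci, beside 39.3% of all. KLA-only and Veh-only loci thus differed by 43.8 points (42.6 to 44.9) in KLA and by 10.3 points (9.12 to 11.4) in Veh. The AP-1 lists did not enter the rule for the classes. The difference in KLA remained when loci within 3 kb of a TSS were left out (49.6 points) and was 71.3 points among loci at or above percentile 50.

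The monomers present at rest, ATF3, Jun and JunD, marked shared loci before treatment and KLA-only loci after it. ATF3, a stress-induced member of the family, had a peak in Veh at 22.0% of KLA-only, 38.6% of shared and 13.2% of Veh-only loci (30.0% of all), and in KLA at 50.9%, 47.4% and 11.98% (40.6% of all). JunD, a widely expressed Jun protein, had a peak in Veh at 19.1%, 38.1% and 10.9% of the classes in the same order (28.6% of all), and in KLA at 50.4%, 45.8% and 9.01% (38.9% of all). Jun itself was found at 15.1%, 28.4% and 8.33% in Veh (21.5% of all), and at 31.8%, 28.5% and 4.27% in KLA (24.0% of all). At shared loci the share with Jun was 28.4% (27.9 to 28.9) in Veh and 28.5% (28.0 to 29.0) in KLA, but the loci were in part other ones. Jun was found in both conditions at 18.5% of shared loci, in KLA and not Veh at 10.1%, and in Veh and not KLA at 9.93%.

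The monomers with few peaks at rest followed the same order of classes in KLA. Fos, an immediate-early protein that needs a Jun partner to bind, had a peak in Veh at 2.02% of KLA-only, 2.94% of shared and 0.994% of Veh-only loci (2.35% of all). In KLA these shares were 40.2%, 34.6% and 6.41% (29.7% of all). Fra2 was found at 5.53%, 11.0% and 2.24% of the classes in Veh (8.10% of all), and at 20.0%, 17.2% and 2.16% in KLA (14.6% of all). At Veh-only loci Fra2 thus had the same share before and after KLA within counting error, although its list grew from 5329 to 10619 peaks. JunB was close to absent in Veh, at 0.388%, 0.775% and 0.164% of the classes (0.570% of all), and reached 25.4%, 21.6% and 3.00% in KLA (18.4% of all). For each of the 6 monomers, KLA-only loci had a higher share than shared loci in KLA and a lower share in Veh, and the intervals of these differences did not reach 0. The largest difference between KLA-only and Veh-only loci in KLA was that of JunD, 41.4 points (40.3 to 42.5), whose KLA list also had the highest counts of all AP-1 lists (median 277.0), and the smallest was that of Fra2, 17.9 points (17.1 to 18.7).

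**Figure D2:**
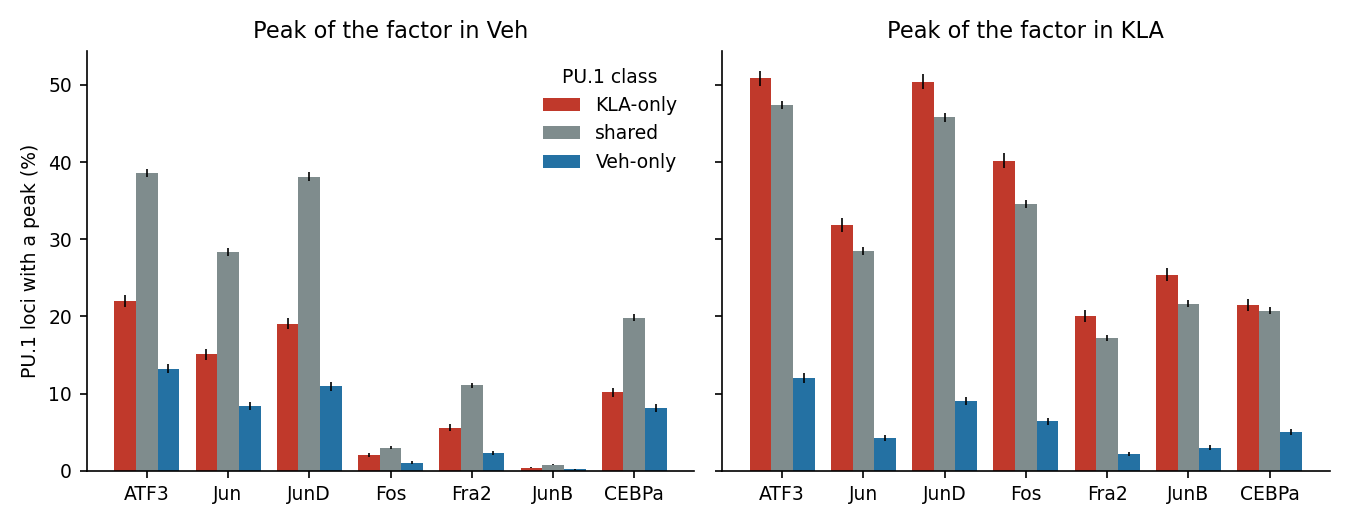
Share of PU.1 loci (y axis, percent) overlapped by a peak of each AP-1 monomer or of CEBPa (x axis), in Veh on the left and KLA on the right, for KLA-only (red), shared (grey) and Veh-only (blue) loci. Bars are shares and error bars are 95% Wilson intervals over loci. In Veh the shared class has the tallest bar for every factor, and in KLA the KLA-only class has the tallest bar, for CEBPa within the error of the shared class.

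Gain of an AP-1 peak was most frequent at KLA-only loci. AP-1 was present in KLA and absent in Veh at 32.9% (32.0 to 33.8) of KLA-only loci, 12.3% (11.9 to 12.7) of shared loci and 4.50% (4.12 to 4.90) of Veh-only loci (14.7% of all). AP-1 was already there in Veh and stayed in KLA at 26.5% of KLA-only, 42.5% of shared and 11.2% of Veh-only loci (32.75% of all). It was present in Veh and absent in KLA at 2.58%, 7.51% and 7.67% (6.58% of all). A large group had none of the 6 monomers in either condition: 38.0% of KLA-only, 37.7% of shared and 76.7% of Veh-only loci (46.0% of all). Most Veh-only loci thus had no monomer at either time. Absence from a list says that no peak passed the threshold, not that the factor was not bound.

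KLA-only loci with AP-1 usually held several monomers. All 6 had a peak in KLA at 12.5% of KLA-only, 10.7% of shared and 0.785% of Veh-only loci, and 3 or more at 40.9%, 36.1% and 5.90%. The full set of 6 was the most frequent combination among KLA-only loci with AP-1 in KLA, at 1254 of 5970 (21.01%), followed by the set without Fra2 at 11.4% and by ATF3 with JunD at 9.05%. Among the 1717 Veh-only loci with AP-1 in KLA the most frequent combination was ATF3 alone, at 24.8% (22.8 to 26.9), and the full set made up 5.01%. In Veh, ATF3 with Jun and JunD was the leading combination at KLA-only loci (22.3% of those with AP-1) and at shared loci (26.0%).

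The presence of AP-1 at KLA-only loci went up with PU.1 strength. Over the 5 bins of the KLA list, any monomer in KLA was found at 45.9%, 63.0%, 77.1%, 89.7% and 92.7% of KLA-only loci, from the weakest bin to the 151 loci of the strongest. Shared loci in the same bins had 23.0%, 34.2%, 47.1%, 61.6% and 82.3%. At a given PU.1 strength in KLA, the KLA-only class thus had the higher share in each of the 5 bins. In Veh, the same KLA-only loci had 26.7%, 31.9%, 32.2%, 29.4% and 21.2%, highest in the middle bin and lowest in the strongest. Shared loci in these bins of the KLA list went from 26.6% to 73.4% in Veh. Veh-only loci had lower shares in KLA, with 17.1%, 15.7%, 11.9% and 15.5% in the first 4 bins of the Veh list and 30.0% (21.9 to 39.6) of the 100 loci in the strongest. With AP-1 in Veh, the matching measure for this class, the shares were 18.7%, 18.0%, 16.4% and 24.9%, and 48.0% (38.5 to 57.7) in the strongest bin.

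The lists from BALB/cJ mice, which neither the classes nor the shares above used, gave the same order. Any of the 5 monomers profiled there had a KLA peak at 63.1% of KLA-only, 59.8% of shared and 19.7% of Veh-only PU.1 loci of C57BL/6 (51.9% of all). The difference between KLA-only and Veh-only was 43.4 points (42.2 to 44.6). By monomer this difference was 36.98 points for JunD, 35.4 for ATF3, 40.2 for Fos, 30.5 for JunB and 16.8 for Jun. PU.1 itself was not analysed here in BALB/cJ mice.

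The lineage factor CEBPa followed PU.1 in the same direction, at lower shares. CEBPa had a peak in Veh at 10.2% of KLA-only, 19.8% of shared and 8.11% of Veh-only loci (15.4% of all), and in KLA at 21.5%, 20.8% and 5.00% (17.6% of all). The difference between KLA-only and Veh-only loci in KLA was 16.5 points (15.6 to 17.4), while that between KLA-only and shared loci was 0.735 points (-0.180 to 1.67), an interval that includes 0. PPARg, a nuclear receptor that regulates lipid genes in macrophages and was profiled in Veh alone, had a peak at 28.3% of KLA-only, 46.0% of shared and 18.3% of Veh-only loci (36.7% of all). KLA-only loci, which by definition had no PU.1 peak in Veh, thus had PPARg before treatment more often than Veh-only loci, by 10.0 points (8.86 to 11.1).

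Seen from the AP-1 side, loci that a monomer gained with KLA had PU.1 more often after KLA than before. Of the 17946 ATF3 loci found in KLA alone, 26.0% held a PU.1 peak in Veh and 40.7% in KLA. For JunD the shares were 29.2% and 47.6% of 16342 loci, for Jun 37.5% and 59.2% of 8496, for Fos 45.0% and 59.2% of 23268, and for JunB 50.8% and 67.8% of 13130. At loci found in Veh alone the order was turned for ATF3 (48.9% in Veh and 39.6% in KLA), Jun (55.2% and 50.7%) and JunD (60.6% and 51.7%). It was not turned for Fra2, with 65.3% in Veh and 66.8% in KLA of 2706 loci, nor in the small lists of Fos (40.7% and 41.1% of 710) and JunB (30.7% and 31.2% of 218).

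The rank of shared loci was compared as a shift, the KLA percentile minus the Veh percentile. Across the 30587 shared loci the Spearman correlation of the Veh and KLA counts was 0.712, a description over loci that share 2 libraries and no more. The median log2 ratio of the counts, KLA over Veh, was -2.01. The counts are not scaled to depth, so a difference in scale and a change in PU.1 signal cannot be told apart in it. Shifts ran from -78.7 to 94.2 points, with quartiles at -11.7 and 11.9, and 44.8% of shared loci kept within 10 points of their Veh rank. A shift of at least 25 points was called up-ranked (3376 loci, 11.0%) or down-ranked (3649 loci, 11.9%). The values nearest to the threshold were 25.00 inside and 24.99 outside for up-ranked loci, and -25 and -24.98 for down-ranked loci. With the ratio of counts centred on its median and a 2-fold limit in place of percentiles, 4.00% were up-ranked and 6.11% were down-ranked.

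The AP-1 monomers in KLA went along with the PU.1 shift over its whole range. Any monomer had a KLA peak at 8.47% (6.43 to 11.1) of the 555 shared loci whose rank was at least 50 points lower in KLA, at 61.8% (60.98 to 62.6) of the 13702 loci that stayed within 10 points, and at 89.1% (86.1 to 91.6) of the 497 loci at least 50 points higher. In Veh the same bins had 24.3%, 58.5% and 39.6%, so the loci with the largest upward shifts had AP-1 less often at rest than the loci that kept their rank. Jun spanned the widest relative range in KLA, from 0.721% (4 loci) to 64.2% across these outer bins. JunD went from 3.42% to 80.7%, ATF3 from 7.57% to 79.5%, Fos from 2.34% to 70.6%, JunB from 1.08% to 52.3% and Fra2 from 0.541% (3 loci) to 38.0%. CEBPa in KLA followed with 4.32% and 36.6%. The bins also differed in PU.1 strength, which follows from how the shift is computed. The median Veh percentile was 72.2 in the lowest bin and 13.6 in the highest, and the median KLA percentile was 12.7 and 75.8. Over the strength bins of the KLA list, AP-1 in KLA at shared loci went from 23.0% to 82.3%. The strength bins are broad, whereas the outer shift bins are small sets of 555 and 497 loci. Their shares are therefore not directly comparable. AP-1 in Veh was at 40.65% of shared loci in the weakest bin of the Veh list, beside 39.6% and 24.3% in the highest and lowest shift bins. The part of PU.1 strength in these trends was not tested. The AP-1 calls were made without the PU.1 percentiles.

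**Figure D3:**
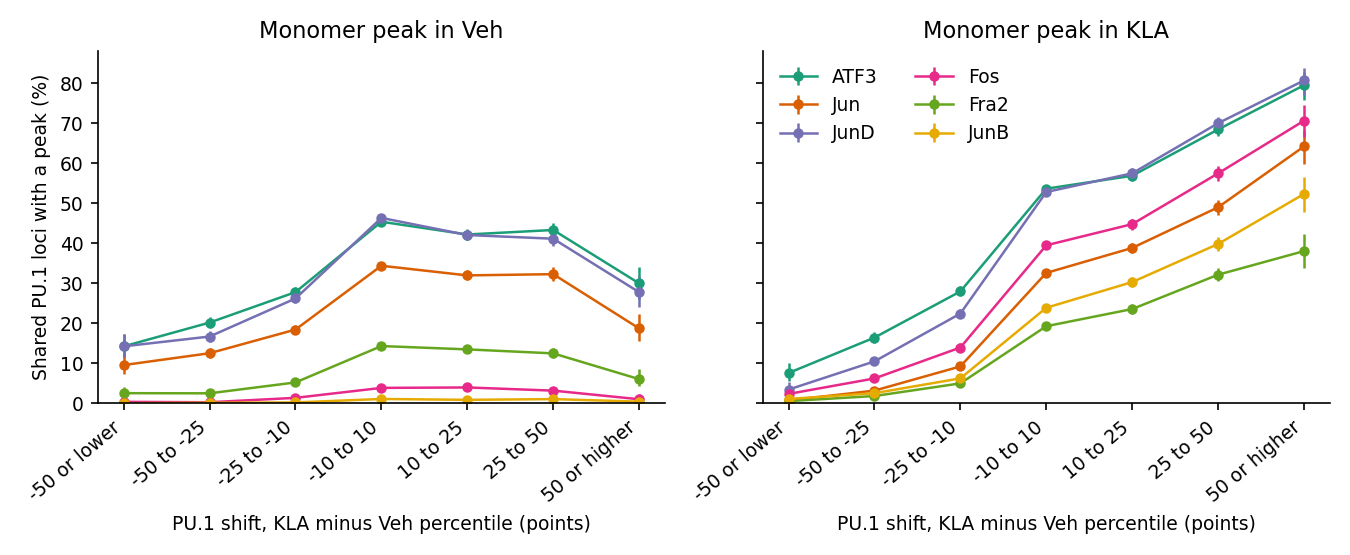
Share of shared PU.1 loci (y axis, percent) with a peak of each AP-1 monomer, against the PU.1 shift in percentile points (x axis, 7 bins from the largest falls in rank to the largest rises), in Veh on the left and KLA on the right. Lines are monomers and error bars are 95% Wilson intervals over loci. In KLA each line goes up from left to right, while in Veh the lines peak between -10 and 50 points and are lower at both ends.

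Where a factor and PU.1 both had peaks in both conditions, their ranks shifted together. The Spearman correlation of the shift of PU.1 with the shift of the factor was 0.563 for CEBPa (4621 loci), 0.432 for JunD (9601), 0.380 for Jun (5701), 0.369 for ATF3 (10251) and 0.312 for Fra2 (1766). These correlations are across loci, each point rests on 4 libraries, and loci are not independent replicates, so no p is given. At up-ranked PU.1 loci the median shift of JunD was 16.5 points (1249 loci) and at down-ranked ones -20.95 points (231 loci). For CEBPa the medians were 10.6 (583 loci) and -27.0 (214 loci). Position changed with the shift as well. Of the loci with the largest downward shifts, 3.96% lay within 1 kb of a TSS, against 24.6% of those within 10 points, 31.0% (29.7 to 32.2) of those 10 to 25 points higher, and 18.3% of those with the largest upward shifts.

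The DNA of the classes differed in the motif of PU.1 itself. AGGAAGT was present in the central 200 bp of 21.4% (20.6 to 22.2) of KLA-only, 40.4% (39.9 to 41.0) of shared and 43.4% (42.4 to 44.3) of Veh-only loci, beside 37.3% of all PU.1 loci and 4.79% of the 13237130 windows of 200 bp that tile the genome. The longer form GAGGAAGTG, a closer match to the full PU.1 site, was present in 2.87%, 12.4% and 15.3% (0.405% of the genome). The ETS core GGAA alone did not separate the classes, at 99.1%, 99.5% and 99.4%, and stood in 87.5% of genome windows. The difference between KLA-only and Veh-only loci in the PU.1 motif was -21.96 points (-23.2 to -20.7), and among distal loci over 3 kb from a TSS the shares were 24.5% and 46.9%. The composite of an ETS core with an IRF site, GGAANTGAA, to which PU.1 binds together with IRF4 or IRF8, went the same way, with 3.88%, 8.59% and 8.84% (2.19% of the genome).

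AP-1 and NF-kB motifs had the opposite order. The TRE, TGACTCA, was in 16.6% (15.9 to 17.3) of KLA-only, 10.6% (10.3 to 11.0) of shared and 5.32% (4.92 to 5.76) of Veh-only loci, beside 3.10% of genome windows. The kappaB consensus was in 9.73% (9.16 to 10.3), 3.35% (3.15 to 3.55) and 1.22% (1.03 to 1.45), beside 1.44% of genome windows, so that Veh-only loci had it no more often than the genome. The CRE, TGACGTCA, was rare throughout, at 0.806%, 0.687% and 0.383% (0.105% of the genome). Other macrophage motifs differed little. The CEBP motif TTGCNNAA was in 12.3%, 12.4% and 11.6% (9.38% of the genome), and the Runx motif TGTGGTT in 5.83%, 6.05% and 6.07% (4.67%). The IRF motif GAAANNGAA was in 11.7%, 10.4% and 8.01% (7.99%). Median GC content was 49.0%, 49.0% and 48.0% in the 3 classes, and 46.0% at down-ranked loci.

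**Figure D4:**
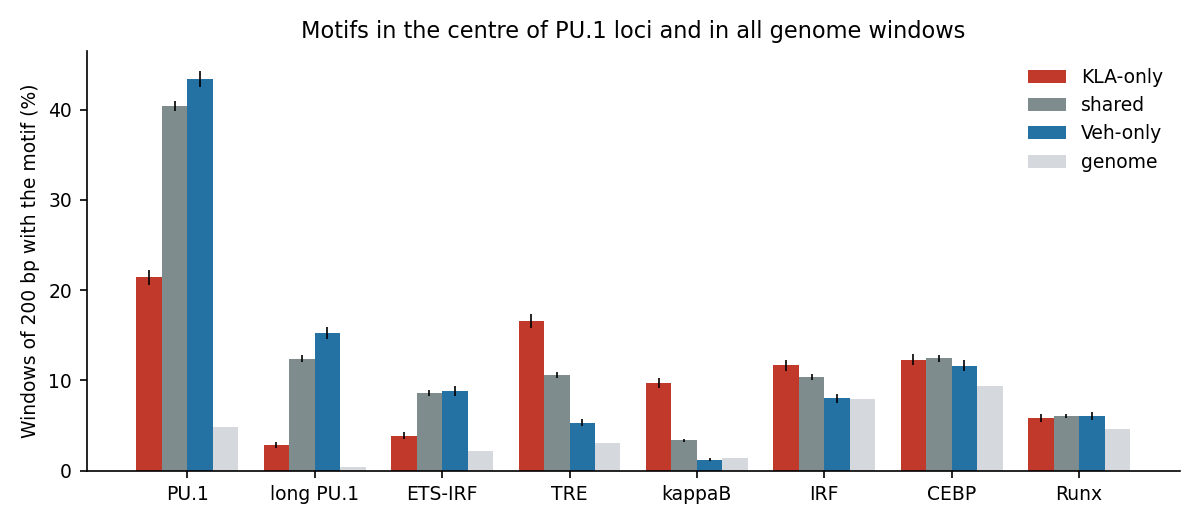
Share of windows (y axis, percent) whose 200 bp hold each motif on either strand (x axis), for KLA-only (red), shared (grey) and Veh-only (blue) PU.1 loci and for all windows of the genome (light grey). Error bars are 95% Wilson intervals over loci. The PU.1 motif is least frequent at KLA-only loci (21.4%), while TRE (16.6%) and kappaB (9.73%) are most frequent there.

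The same contrast appeared within the shared class. Up-ranked loci had the PU.1 motif in 29.9% and down-ranked loci in 47.2%, the TRE in 18.5% and 3.62%, and kappaB in 9.36% and 0.795%. The TRE followed the AP-1 peaks: at KLA-only loci it was present in 25.3% (24.2 to 26.4) of those with a monomer in KLA and in 3.78% (3.23 to 4.41) of those without, and the PU.1 motif in 17.9% and 26.6%. The kappaB match did so less, with 11.9% and 6.60%. Strength separated the motifs further. From the weakest to the strongest bin of the KLA list, kappaB at KLA-only loci went from 6.50% through 9.60%, 14.0% and 18.7% to 28.0% (21.4 to 35.7), while the TRE stayed between 14.6% and 19.9%. At Veh-only loci the PU.1 motif went from 38.1% in the weakest bin of the Veh list to 60.6% (50.8 to 69.7) of the 99 loci in the strongest.

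KLA-only loci gathered near genes of the early TLR4 response. Each locus was given its nearest protein-coding TSS, and 24.1% of the 21840 protein-coding gene symbols were nearest to at least 1 KLA-only locus, 46.3% to a shared and 28.1% to a Veh-only locus. The 50 early TLR4 response genes, a list of cytokines, chemokines and NF-kB feedback genes, had a KLA-only locus in 45 cases, a shared locus in 48 and a Veh-only locus in 18. Of the 513 loci nearest to them, 40.9% (36.8 to 45.2) were KLA-only and 5.85% (4.13 to 8.23) were Veh-only, beside 19.5% and 21.2% of all loci. Among their 273 shared loci 74 were up-ranked (27.1%) and 11 down-ranked (4.03%), beside 11.0% and 11.9% of all shared loci. Their median shift was 9.82 points, beside 0.317 over all. At or above percentile 50 in either list 15.2% of loci near these genes were KLA-only, and 5.64% of all loci were. This list holds genes known to respond to TLR4 and was chosen with earlier results of these data known.

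The interferon genes had a similar split from few loci, and the macrophage identity genes did not. The 28 interferon response genes matched, which encode antiviral and guanylate-binding proteins, had 84 loci, of which 41.7% (31.7 to 52.4) were KLA-only and 4.76% (1.87 to 11.6) Veh-only. Of their 45 shared loci 14 were up-ranked (31.1%), beside 11.0% of all shared loci. Of these 28 genes, 16 had a KLA-only locus (57.1%). The 40 macrophage identity genes, among them Csf1r, Itgam and Mertk, had 487 loci, of which 19.7% (16.4 to 23.5) were KLA-only, 67.1% were shared and 13.1% (10.4 to 16.4) were Veh-only. Among their 327 shared loci 41 were up-ranked (12.5%) and 27 down-ranked (8.26%), beside 11.0% and 11.9% of all shared loci. All 40 had a shared locus. The 12 genes of AP-1 monomers had 140 loci with 21.4% KLA-only and 10.7% Veh-only, and the 20 lipid and PPARg target genes had 146 with 23.3% and 18.5%. A KLA-only locus was found at 10 of these 12 genes and at 15 of these 20. Each of these lists, like the early TLR4 list, was above the 24.1% of all protein-coding genes. Having such a locus was thus not particular to the response genes. The marker lists of other cell types had 6 to 17 loci each, too few for a split. Near the early TLR4 genes 72.3% of loci had AP-1 in KLA, beside 60.99% near macrophage identity genes and 47.4% of all.

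**Figure D5:**
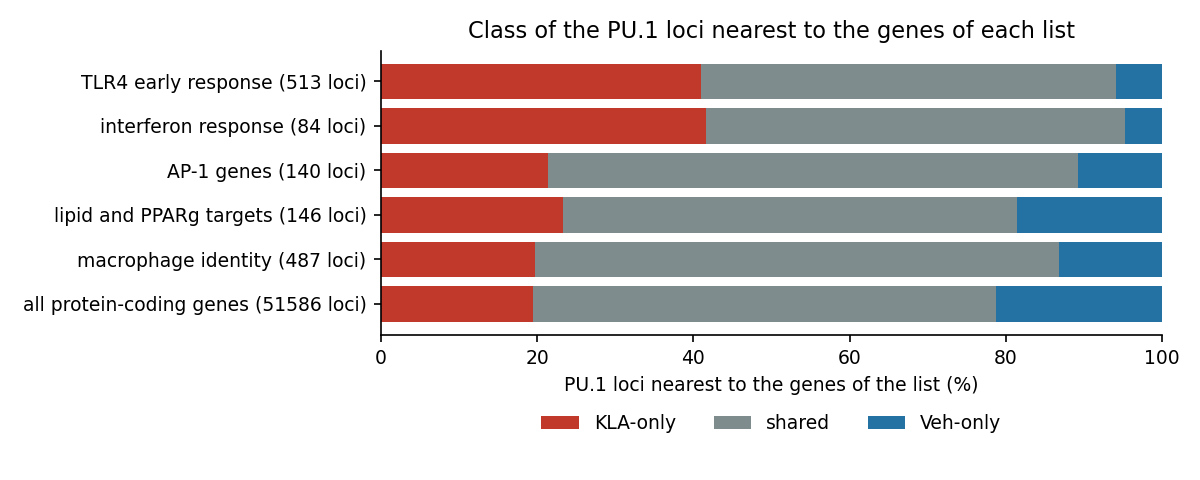
Make-up by class (x axis, percent) of the PU.1 loci nearest to the genes of 5 lists and of all protein-coding genes (y axis, with the number of loci), with KLA-only in red, shared in grey and Veh-only in blue. Bars are shares with no error drawn. KLA-only loci make up 40.9% and 41.7% of the loci near early TLR4 response and interferon response genes, and 19.7% near macrophage identity genes.

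Loci of 1 condition at or above percentile 50 were taken for naming. Of all 1464 such KLA-only loci, 86.1% (84.2 to 87.8) had AP-1 in KLA, 29.4% had it in Veh, 25.6% (23.4 to 27.9) held all 6 monomers in KLA, 17.4% had the TRE and 18.4% had kappaB. Of the 1886 such Veh-only loci, 14.8% (13.3 to 16.5) had AP-1 in KLA and 22.2% in Veh. The counts for the gene lists are to be read against these shares. Near early TLR4 response genes there were 48, of which 41 were KLA-only, and 40 of those 41 had AP-1 in KLA while 15 had it in Veh. All 6 monomers were present at 18 of the 41. The kappaB consensus was in 11 of the 41 windows and the TRE in 12. Of these KLA-only loci 11 lay within 1 kb of a protein-coding TSS, and they include the promoters of Ccl5, Tnf, Cxcl10, Nfkbia and Icam1. The shares near a TSS given earlier counted TSSs of any gene and are not a match for this count. The chemokine gene Ccl5 had a KLA-only peak at -13 bp from its TSS with 216 counts (percentile 95.8 in KLA) and with all 6 monomers in KLA and none in Veh. A second Ccl5 site at -6132 bp was shared and went from percentile 1.09 in Veh (115 counts) to 90.8 in KLA (168 counts), with Jun and JunB in KLA. Icam1, an adhesion molecule, had KLA-only peaks at -3778 bp (176 counts), 727 bp (165 counts) and 6105 bp (121 counts). The highest of the 48 was the site at -10150 bp of Il1a, the interleukin-1 alpha gene, with 309 counts and 5 monomers in KLA. Tnfaip3, which encodes the NF-kB inhibitor A20, had 21 KLA-only, 15 shared and 4 Veh-only loci, with the named KLA-only loci between -83493 and 46975 bp.

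The 7 Veh-only loci of this list included the promoter of Ccl2, another chemokine gene, at -333 bp with 508 counts (percentile 82.1 in Veh), with Jun in Veh and with ATF3 and Jun in KLA. The promoter of Malt1, a protease of NF-kB signalling, at 100 bp had 441 counts in Veh and no AP-1 in either condition. The sites of Il1rn at -18731 bp (396 counts) and Cxcl2 at -4962 bp (382 counts) were also Veh-only. A gene of the early response could thus have loci of both kinds. Near interferon response genes the 8 named loci were all KLA-only, none had AP-1 in Veh, and 7 had it in KLA. Among them were Gbp3 at 4 bp (107 counts), Ifnb1, the interferon beta gene, at -126 bp (94 counts), and Ifih1, a sensor of viral RNA, at -2641 bp (104 counts).

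The 6 loci of Tnf, the gene of tumour necrosis factor, were 3 KLA-only and 3 shared. The KLA-only promoter site at -544 bp had 157 counts (percentile 89.1) with ATF3, Jun, JunD, Fos and Fra2 in KLA and no monomer in Veh. The shared promoter site at -96 bp had 282 counts in Veh and 129 in KLA, percentiles 55.1 and 83.3. The site at 1347 bp moved from percentile 37.7 to 73.3 and already held 5 monomers in Veh, while that at 786 bp stayed at 69.0 and 72.9. The sites at 2175 and 1634 bp were weak, with 41 and 26 counts in KLA. Of the 3 loci of Cxcl10, an interferon-inducible chemokine gene, the promoter sites at -121 and -861 bp were KLA-only with 89 counts each, and that at -4889 bp was shared and went from percentile 9.19 to 62.9. The site at -121 bp, whose sequence is shown above with a TRE and 2 kappaB matches, held 2 monomers in Veh and all 6 in KLA, and the site at -861 bp held JunD alone in KLA.

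Nfkbia, which encodes the NF-kB inhibitor IkB alpha, had 18 loci, of which 11 were KLA-only, 7 were shared and none was Veh-only. Its promoter site at -322 bp was KLA-only with 91 counts (percentile 69.6). Of the 7 shared loci 4 were up-ranked, the largest shift being that at 23596 bp, from percentile 16.1 (152 counts) to 72.5 (97 counts), a site without AP-1 in either condition. Il1b, the interleukin-1 beta gene, had 15 loci with 7 KLA-only, 7 shared and 1 Veh-only. Its promoter site at -65 bp was high in both conditions, with 705 counts in Veh and 312 in KLA (percentiles 92.2 and 99.4), and so was the site at -2384 bp with 1099 and 354 counts (99.4 and 99.8). The largest shift at Il1b was that of the site at -18930 bp, from percentile 1.37 to 68.2. At Il1b the sites with the most counts in KLA were thus already in the Veh list, whereas at Tnf the site with the most counts in KLA was KLA-only.

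Of the macrophage identity genes, Spi1, Csf1r and Cd14 were followed in full, and their strongest sites in Veh were shared. Spi1, the gene of PU.1 itself, had 10 loci, of which 6 were shared and 4 were KLA-only. The site at -11370 bp had 572 counts in Veh and 187 in KLA (percentiles 86.2 and 93.2), and the promoter site at 5 bp had 175 and 65 (25.4 and 52.6). The site at -5665 bp went from percentile 12.2 to 78.9, from 1 monomer in Veh to 5 in KLA. Csf1r, the receptor for macrophage colony-stimulating factor, had 13 loci, 9 of them shared, and its strongest at 2891 bp had 1026 counts in Veh and 296 in KLA (percentiles 98.95 and 99.2). Its promoter site at -18 bp had 600 and 218 counts (87.7 and 95.99). Upstream of Csf1r 2 neighbouring peaks were of opposite class, a Veh-only one at -14683 bp (227 counts) and a KLA-only one at -14907 bp (68 counts), so that adjacent windows fell into different classes. Cd14, the coreceptor of TLR4, had 5 loci, 4 of them shared, with 546 and 180 counts at its promoter site at 98 bp (84.6 and 92.3).

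Of the 20 named loci near macrophage identity genes, 12 were KLA-only and 8 Veh-only. A monomer was present in KLA at 10 of the 12 KLA-only loci and at none of the 8 Veh-only loci, which also had none in Veh, beside 86.1% and 14.8% in KLA over all such loci, so that these counts are no result about the list. The KLA-only loci included the promoter of Tlr2, a receptor for bacterial lipopeptides, at 46 bp with 132 counts and all 6 monomers in KLA, an intronic site of Mitf at 21218 bp with 155 counts, and a site of Cebpb at 58693 bp with 130 counts and no AP-1. The Veh-only loci included sites of Irf8, a transcription factor gene of myeloid cells, at 12183 bp (313 counts) and 86212 bp (267 counts), and of the scavenger receptor gene Msr1 at 69413 bp (315 counts).

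The AP-1 genes themselves had PU.1 loci of all classes. Fos had 22 loci, of which 7 were KLA-only, 14 shared and 1 Veh-only. Its promoter site at -64 bp ranked lower in KLA (428 counts in Veh, 86 in KLA, percentiles 75.5 and 67.1), whereas its site at 39897 bp was KLA-only with 183 counts, no monomer in Veh and all 6 in KLA. The 24 loci of Atf3 held 18 shared, 2 KLA-only and 4 Veh-only ones, with 3 up-ranked, and the promoter site at 4 bp went from percentile 34.5 to 50.8. Jun had 23 loci, and its 7 Veh-only loci were the most of the 11 genes followed in full. Its strongest locus at -53967 bp was stable, with 1062 counts in Veh and 363 in KLA (percentiles 99.2 and 99.8), and had 5 monomers in Veh and 6 in KLA. The 6 loci of Junb included 5 shared ones. Its KLA-only locus at -3573 bp had 160 counts (percentile 89.6) and the PU.1 motif, with Jun in Veh and no monomer in KLA.

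Among the 5 highest loci of each class, a monomer was present in KLA at 4 KLA-only, 5 shared and 4 Veh-only loci. In Veh it was present at 3, 4 and 3. These counts are too small to compare the classes. In the strongest bin of the KLA list, 92.7% of KLA-only and 82.3% of shared loci had AP-1 in KLA. Of the Veh-only loci in the strongest bin of the Veh list, 30.0% did. Of the 5 highest KLA-only loci, that with the most counts (437) lay in the long noncoding RNA gene Gm26917 on chromosome 17 and had no AP-1. Loci were not screened for repeated sequence or mapping artefacts. The counts of this locus and of the highest Veh-only one may therefore not reflect PU.1 binding. The next was in an intron of Nr4a1, which encodes the immediate-early nuclear receptor Nur77, at -4109 bp with 425 counts, with 3 monomers in Veh and all 6 in KLA. The others were near Actb, the gene of beta-actin, at -2547 bp (340 counts), Il1a (above) and Pttg1 at 40734 bp (255 counts). With TSSs of any gene, the nearest to the Pttg1 locus was that of Gm12148, at -253 bp. The highest Veh-only locus, with 1563 counts, lay on unplaced sequence (JH584304), and the others were near Gm826 at 37438 bp (940 counts), Serpinb8 at -5718 bp (795 counts), Irf2bp2 at -89781 bp (792 counts) and the lysozyme gene Lyz1 at -8945 bp (783 counts).

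The 5 highest shared loci were almost at the top of both lists. They lay at -7131 bp of the phosphatase gene Ptpn1 (1422 counts in Veh, 471 in KLA), within Jazf1 with Tax1bp1 as the nearest coding TSS (1394 and 471), at -54101 bp of Slc22a27 (1433 and 445), at 1765 bp of the interleukin-6 receptor gene Il6ra (1399 and 448) and at 98711 bp of Rmi1 (1373 and 451). All 5 had AP-1 in KLA, and 4 had it in Veh. Among loci at or above percentile 75 in a list, the largest upward shift, 94.2 points, was at -821 bp of Tnfsf9, which encodes the costimulatory ligand 4-1BBL. It had 122 counts in Veh (percentile 3.39) and 247 in KLA (97.6), with no monomer in Veh and all 6 in KLA. The next were at Ccl5 (above), Flrt3 at -175484 bp within Macrod2 (130 to 201 counts), Abtb2 at 40465 bp (125 to 181) and Zmiz1 at -57411 bp (129 to 187). None of these 5 loci had AP-1 in Veh, and each had it in KLA. The largest downward shifts, -78.7 to -77.6 points, were near Mbnl1 (520 counts in Veh and 29 in KLA), Ube4b (544 and 30), Arhgap18 (495 and 28), Gm765 (513 and 29) and Gm4847 (485 and 28). None of these 5 had AP-1 in KLA, and 1 had it in Veh.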

How the data were processed

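ChIP-seq reads had been aligned to mm10 with Bowtie2 and peaks called with HOMER against the input of the same treatment, per the submitters' processing notes and the study's methods, and the authors combined replicates by IDR (limit 0.05) before they deposited 1 list per factor and treatment. The versions of Bowtie2 and HOMER are not given in the sources used here. The deposited values are a tag count per peak, not scaled to depth, and an IDR score. Samples were grouped by factor, strain and treatment from their labels. The count sum over peaks was 13809143 in Veh and 3342808 in KLA, which is not the depth of the libraries.

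Peaks sharing 1 bp or more were merged, and counts were turned into percentiles within a list. Overlap of at least 1 bp with a peak also counted as presence of another factor. TSSs, genes and genome sequence came from GENCODE M21 (GRCm38), checked against the ends of the PU.1 peaks. Motifs were exact matches on either strand in the central 200 bp. Loci off the main chromosomes were left out of positions and motifs. With 1 list per condition no test was run. Overlaps, Wilson intervals and nearest TSSs were tested on simulated data. Python 3.11.15, numpy 2.4.6, pandas 2.3.3, scipy 1.17.1 and matplotlib 3.10.9 were used.

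Loci named were the 5 highest of each class, the 5 largest shifts in each direction among loci with a percentile of at least 75 in either list, loci of 1 condition with a percentile of at least 50 nearest to an early TLR4, macrophage identity, interferon or AP-1 gene, and all loci of Spi1, Csf1r, Cd14, Tnf, Il1b, Cxcl10, Nfkbia, Atf3, Fos, Junb and Jun. The members, the gene lists and the rules were chosen with earlier results of these data known. Mx2 and Cxcl11 were not matched. Alternatives changed the joining rule, the strength of peaks, list length, IDR score, TSS limit, shift and motif window. The Fos list from BALB/cJ mice in Veh was empty, and the lists of PPARg-deficient cells were not used here. One named locus is not reported here.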

Additional observations from a re-analysis of the deposited data

How the results depend on the processing

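No paired analysis was possible because each condition has 1 list with its replicates already combined, and for the same reason no replicate could be left out. Of the values that answer a comparison, 56 stayed within the 95% interval of the value reported and 80 moved outside it. None of the differences among them changed sign, whereas a share has no sign to change. The order of some shares did turn with lists of equal length. Up-ranked loci were then more frequent than down-ranked ones (11.91% against 11.46%), and KLA-only loci narrowly more than Veh-only ones (20.34% against 20.31%). Of the values for single AP-1 monomers, 44 stayed, 63 moved and 1 changed sign, the difference between KLA-only and Veh-only loci in Fos in Veh, which was 1.03 points in the report and -0.187 points (-0.392 to 0.0695) with IDR scores of 1000 only. The cause was not tested. The shifts of named loci, which have no interval, kept their sign in all 68 values, which exist only where the locus was still shared. None of these loci was still shared with the strongest 50% of each list or with IDR scores of 1000 only. The Ccl5 locus was also lost with lists of equal length, and the Zmiz1 locus with joining by centres. Differences below are KLA-only minus Veh-only unless another class is named. With loci joined by centres within 100 bp, shares were 20.0% for KLA-only loci, 21.8% for Veh-only loci and 58.2% for shared loci. Differences in points were then 40.9 for AP-1 in KLA, 8.92 for AP-1 in Veh, 3.16 for AP-1 in KLA against shared loci, 40.4 for BALB/cJ AP-1 in KLA and 13.1 for CEBPa in KLA. With a reciprocal overlap of 50%, shares were 19.9% for KLA-only loci, 21.7% for Veh-only loci and 58.3% for shared loci. Differences in points were then 41.7 for AP-1 in KLA, 9.12 for AP-1 in Veh, 3.44 for AP-1 in KLA against shared loci, 41.3 for BALB/cJ AP-1 in KLA and 13.7 for CEBPa in KLA. With the strongest 50% of each list, shares were 20.2% for KLA-only loci, 22.0% for Veh-only loci, 57.8% for shared loci, 14.6% for down-ranked loci and 12.5% for up-ranked loci. Differences in points were then 47.1 for AP-1 in KLA, 15.1 for AP-1 in Veh, 11.3 for AP-1 in KLA against shared loci, -14.2 for AP-1 in Veh against shared loci, 51.3 for BALB/cJ AP-1 in KLA, 12.5 for TSS proximity, -18.6 for the PU.1 motif, 12.8 for the TRE and 9.39 for kappaB. With IDR scores of 1000 only, shares were 12.5% for KLA-only loci, 30.3% for Veh-only loci, 57.2% for shared loci, 17.7% for down-ranked loci, 8.34% for up-ranked loci, 31.4% for KLA-only loci near early TLR4 genes and 10.4% for Veh-only loci near early TLR4 genes. Differences in points were then 52.9 for AP-1 in KLA, 13.6 for AP-1 in KLA against shared loci, -17.6 for AP-1 in Veh against shared loci, 52.0 for BALB/cJ AP-1 in KLA, 18.8 for CEBPa in KLA, 2.72 for TSS proximity, -19.3 for the PU.1 motif, 13.1 for the TRE and 11.5 for kappaB. Over 3 kb from a TSS, differences in points were 49.6 for AP-1 in KLA, 11.9 for AP-1 in Veh and 7.29 for AP-1 in KLA against shared loci. With the AP-1 lists cut to their strongest 50%, differences in points were 31.5 for AP-1 in KLA, 8.08 for AP-1 in Veh and -13.7 for AP-1 in Veh against shared loci. Among loci of percentile 50 or more in either list, an alternative chosen after seeing the data, shares were 5.63% for KLA-only loci, 7.26% for Veh-only loci, 87.1% for shared loci, 13.4% for down-ranked loci, 11.6% for up-ranked loci, 15.2% for KLA-only loci near early TLR4 genes and 2.60% for Veh-only loci near early TLR4 genes. Differences in points were then 71.3 for AP-1 in KLA, 7.22 for AP-1 in Veh, 25.6 for AP-1 in KLA against shared loci, -25.7 for AP-1 in Veh against shared loci, 66.6 for BALB/cJ AP-1 in KLA, 30.3 for CEBPa in KLA, 2.52 for TSS proximity, -26.1 for the PU.1 motif, 12.5 for the TRE and 17.2 for kappaB. With lists of equal length, shares were 20.3% for KLA-only loci, 20.3% for Veh-only loci, 11.5% for down-ranked loci and 11.9% for up-ranked loci. With a limit of 3 kb, differences in points were 11.2 for TSS proximity. With a centred 2-fold count ratio, shares were 6.11% for down-ranked loci and 4.00% for up-ranked loci. With a shift of 50 points, shares were 1.81% for down-ranked loci and 1.62% for up-ranked loci. In the central 100 bp, differences in points were 7.02 for the TRE and 5.57 for kappaB. Leaving out loci off the numbered chromosomes and X, also chosen after seeing the data, moved none of the comparison values outside its interval. The lists differ in count scale and in IDR score, so that a weak locus missing from one list may lie just under its threshold, and the share of such loci is unknown. With 1 list per condition, no spread between mice could be given. The classes are therefore descriptions of these lists.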

Other observations

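Genes with many PU.1 loci of 1 condition were listed after the values were seen. The most KLA-only loci were nearest to Lpp, which encodes a focal adhesion protein (26 KLA-only, 46 shared and 6 Veh-only), Jarid2, a partner of Polycomb complexes (25, 27 and 5), Tnfaip3 (21, 15 and 4), Cd44, the hyaluronan receptor gene (19, 15 and 1), and the transcription factor gene Klf6 (19, 38 and 7). The most Veh-only loci were nearest to Runx1, a transcription factor gene of blood cells, with 15 KLA-only, 32 shared and 15 Veh-only loci. Next came Bach2, a transcriptional repressor gene (6, 20 and 14), the phosphodiesterase gene Pde4d (3, 22 and 14), Tbl1xr1, a subunit of corepressor complexes (7, 26 and 14), and Irs2, an adaptor of insulin signalling (6, 24 and 13). Such counts also depend on the distance to the neighbouring genes, whose part was not tested.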
